A study of Saccharomyces cerevisiae with 6 samples.

Results

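A set of 10 chaperone genes of the mitochondrial matrix was followed in yeast cells that overexpressed Med3-GST or GST alone. The 10 genes were taken by name, as known chaperones and cochaperones of this compartment. The rule used none of their values, but the set was chosen with earlier results of these arrays known. Each had 1 probe set among the 5498 probe sets for 5449 genes of *Saccharomyces cerevisiae* that were compared. The control group held cells with GST (glutathione S-transferase, a protein tag) and the other group cells with the Mediator subunit Med3 fused to GST, labelled GST-med3, with 3 biological replicates each (A, B and C). The study places both proteins under a galactose-inducible promoter on a plasmid and describes overexpression in galactose medium without uracil. Galactose medium, the plasmid and the GST tag were therefore taken as shared by both groups. The level of induction was not taken as shared. By quantitative PCR the paper reports a lower peak and a lower steady state for transcript of the Med3 construct than for GST. Overexpression lasted 48 h, and 1 Affymetrix array was used per replicate. The sample titles carry another code for each group, and neither the parent strain of these cultures nor the number of transformants is stated for the arrays in the sources used here. The comparison asked which transcripts differed when Med3 was overexpressed.

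Proteins imported into mitochondria cross the membranes unfolded and are pulled in and folded by chaperones of the matrix. The main Hsp70 of the matrix, Ssc1, binds the incoming chain with the help of J-domain proteins and of the nucleotide exchange factor Mge1, and part of its substrates are passed to the chaperonin, a ring of Hsp60 closed by the lid Hsp10. A separate Hsp70, Ssq1, works with the J-domain protein Jac1 in the assembly of iron-sulfur clusters, and Hsp78, a Clp-type ATPase, pulls proteins out of aggregates. In *S. cerevisiae*, genes such as HSP60, HSP10, SSC1, MDJ1 and HSP78 are known targets of the heat shock factor Hsf1.

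Signals are given as log2 of the deposited signal, and differences as Med3-GST minus GST. Replicates were close (correlation across probe sets of 0.999 or more within a group), but the array medians ran from 9.87 to 9.99 with Med3-GST and from 9.99 to 10.08 with GST, and the median difference of all probe sets was -0.08 as deposited. Subtracting its own median from every array (centring) brought this to 0.01. Both scalings are therefore given where they matter. The overexpressed gene itself, MED3, listed as PGD1, had log2 signals of 8.24, 8.01 and 8.07 on the GST arrays and 11.85, 11.73 and 11.84 on the Med3-GST arrays, as the labels have it. The probe set cannot tell the chromosomal copy from the plasmid. Groups were compared with limma, two-sided, and a gene was said to rise or fall where the Benjamini-Hochberg adjusted p over all 5498 probe sets was under 0.05. On the deposited scale limma estimated 1 common spread, and the standard error of every difference was 0.05. The background level was taken from 1746 probe sets on the array for genes of another yeast, *S. pombe*, which was not in the cultures, and their 95th percentile was a log2 signal of 7.49. All 10 members lay above it on every array. Where background was subtracted, the lower median of the *S. pombe* probe sets on each array was used (log2 of 6.02 to 6.06). In RNA of whole cultures, less transcript in each cell and fewer cells with the transcript cannot be told apart. The log2 ratio of 3′ to 5′ signal of 8 control mRNAs, a measure of RNA and labelling quality, shifted between the groups by -0.16 to 0.11, that of 18S rRNA by -0.57 and that of 25S rRNA by 0.30; their part in the differences was not tested.

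HSP78 and JAC1 fell most among the 10 genes, HSP60 rose, and SSC1 stood near its control level. As deposited, 8 of the 10 genes fell, 1 rose and 1 did not pass the test. In the same fit 74.9% of all probe sets passed, 47.8% lower and 27.1% higher, so that most genes of the array passed as most members did, and whether the share of members differed from the array's was not tested. The median log2 difference of the 10 genes was -0.23, against -0.08 for all probe sets. After centring, 7 fell and 2 rose, with a median of -0.14, where 85.3% of all probe sets passed, 41.7% lower and 43.6% higher. The median of the members lay 0.15 below that of all probe sets, a distance that centring cannot change because it moves every difference equally. The median of the members minus that of all probe sets was -0.14 after quantile normalization. It was -0.17 after background subtraction with centring. The groups of arrays did not overlap for 8 of the 10 genes as deposited, 7 lower and 1 higher, where 75% of all probe sets did not overlap (48.4% lower and 26.6% higher). After centring this held for 9 members, 7 lower and 2 higher, and for 85.4% of all probe sets (42.2% lower and 43.2% higher). Differences larger than 0.5 in size were found for 2 members and for 15.5% of all probe sets.

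**Figure D1:**
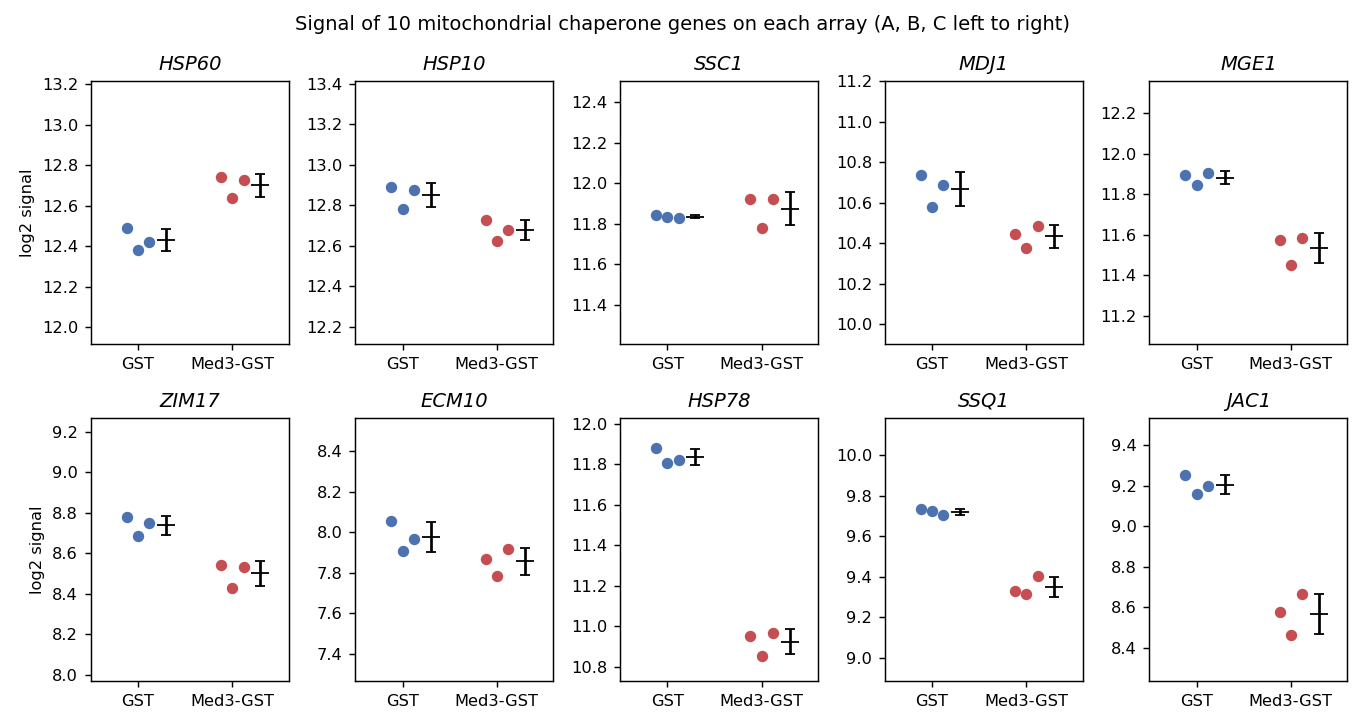
Log2 signal of the 10 genes on each array, with blue points for GST and red points for Med3-GST (replicates A, B and C from left to right) and black bars for the mean ± SD (n = 3); every panel spans the same range on its own log2 scale. The groups are apart in all panels except SSC1 and ECM10, and the widest gap is in HSP78, where the lowest GST array lies 0.84 above the highest Med3-GST array.

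HSP60 encodes the subunit of the chaperonin ring. Its log2 signals were 12.49, 12.38 and 12.42 with GST and 12.74, 12.64 and 12.72 with Med3-GST. All 3 Med3-GST arrays lay above all 3 GST arrays. The mean went from 12.43 ± 0.05 to 12.70 ± 0.06 (SD, n = 3 each), a log2 difference of 0.27 with a standard error of 0.05, or 1.21-fold, with an adjusted p = 1.61e-07 from limma. After centring the difference was 0.37. HSP60 was thus the only member that rose under both scalings, and 85.0% of all probe sets had a lower difference.

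HSP10, the lid of the same chaperonin, went the other way. The log2 signals of HSP10 were 12.89, 12.78 and 12.87 with GST and 12.73, 12.63 and 12.68 with Med3-GST. The groups did not overlap, but the gap between the nearest arrays was only 0.06. HSP10 fell by 0.17 as deposited (adjusted p = 0.000947 from limma) and by 0.08 after centring (adjusted p = 0.0119), where leaving out GST replicate C or Med3-GST replicate C gave differences of -0.06 and -0.06 that no longer passed (adjusted p = 0.0544 and 0.0648). The fall of HSP10 was small and lay close to the general shift of the arrays, whereas the rise of HSP60 ran against it.

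The offset between arrays cancels when the ratio of HSP60 to HSP10 is taken within each array. This log2 ratio was -0.40, -0.40 and -0.45 on the GST arrays and 0.01, 0.01 and 0.04 on the Med3-GST arrays. The size of the ratio itself depends on the probes and has no meaning alone, but its change does: it shifted by 0.44 with a standard error of 0.02, a 1.36-fold change in favour of HSP60. With 3 arrays a side the smallest p of a two-sided exact permutation test is 0.1. That value was reached here, and it stayed 0.1 when adjusted over the 11 ratios computed.

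SSC1 encodes the main Hsp70 of the matrix, which drives import and folding. As deposited, the arrays gave log2 signals of 11.84, 11.83 and 11.83 with GST, the tightest triplet of the 10 genes, and 11.92, 11.78 and 11.92 with Med3-GST. The Med3-GST arrays A and C lay above the GST arrays and B below them, so that the groups overlapped. The difference was 0.04 as deposited, with a 95% interval from -0.06 to 0.14 and an adjusted p = 0.469 from limma. Array B also had the lowest median signal of the 3 Med3-GST arrays, and after centring all 3 Med3-GST arrays (11.90 to 11.95) lay above the GST arrays (11.75 to 11.83). The centred GST signals of SSC1, at 11.75, 11.83 and 11.78, were no longer the tightest triplet. SSC1 then passed the test with a difference of 0.14 (adjusted p = 0.000371), as it did after quantile normalization with 0.13. Whether SSC1 rose therefore depended on the scaling of the arrays, and no rise above 0.19 lay inside the interval under either scaling.

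MDJ1, the J-domain partner that brings substrates to Ssc1 and stimulates its ATPase, fell. The log2 signals of MDJ1 were 10.74, 10.58 and 10.69 with GST and 10.44, 10.37 and 10.49 with Med3-GST, without overlap. The difference was -0.23 as deposited and -0.14 after centring, and it passed the test both times (adjusted p = 6.50e-06 and 0.000146 from limma).

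MGE1 encodes the nucleotide exchange factor that opens the matrix Hsp70s for release of their substrates. On the log2 scale its signals were 11.89, 11.85 and 11.91 with GST and 11.57, 11.45 and 11.59 with Med3-GST. The gap between the groups was 0.26, wider than the spread within either of them. MGE1 fell by 0.35 as deposited, a 1.27-fold decrease, and by 0.25 after centring (adjusted p = 1.51e-11 and 4.23e-07 from limma).

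ZIM17, also called HEP1, encodes a zinc finger protein that keeps the matrix Hsp70s from aggregating. Signals of ZIM17 on the log2 scale were 8.78, 8.68 and 8.75 with GST and 8.54, 8.43 and 8.53 with Med3-GST, again without overlap. ZIM17 fell by 0.24 as deposited and by 0.14 after centring (adjusted p = 4.70e-06 and 4.15e-05 from limma), much like MDJ1. Its signal lay only 1.13 above the background level on the log2 scale, and after subtraction of the background with centring the difference was -0.18.

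ECM10 encodes a minor Hsp70 of the matrix that is closely related to Ssc1. It was the member nearest to background, with log2 signals of 8.05, 7.91 and 7.97 with GST and 7.87, 7.78 and 7.92 with Med3-GST. ECM10 lay 0.43 above the background level on average. The groups overlapped, since Med3-GST array C lay above GST array B. The difference of -0.12 passed the test as deposited (adjusted p = 0.0230 from limma), but the adjusted p was 0.315 after centring, with a difference of -0.02, and ranged from 0.000434 to 0.716 over all alternatives. Leaving out GST replicate A, GST replicate C, Med3-GST replicate A or Med3-GST replicate B each ended the call as deposited, with differences of -0.08, -0.12, -0.13 and -0.08. The value of ECM10 is uncertain also because SSC1 is a close relative: the probe sets of both genes have names that Affymetrix gives to sets unique to 1 gene, but cross-hybridization was not tested.

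Within arrays, the Hsp70 shifted against each of its partners. The log2 ratio of SSC1 to MGE1 was -0.05, -0.01 and -0.08 on the GST arrays and 0.35, 0.33 and 0.34 on the Med3-GST arrays, a shift of 0.39 with a standard error of 0.02. The ratio of SSC1 to MDJ1 shifted by 0.27 and that of SSC1 to ZIM17 by 0.28, with standard errors of 0.05 and 0.03. SSC1 against its relative ECM10 shifted least of these, by 0.16 (standard error 0.04). The ratio of HSP60 to SSC1 shifted by 0.23 (standard error 0.03), and that of MGE1 to MDJ1 by -0.11, with log2 ratios of 1.16, 1.27 and 1.22 on the GST arrays and 1.13, 1.08 and 1.10 on the Med3-GST arrays.

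**Figure D2:**
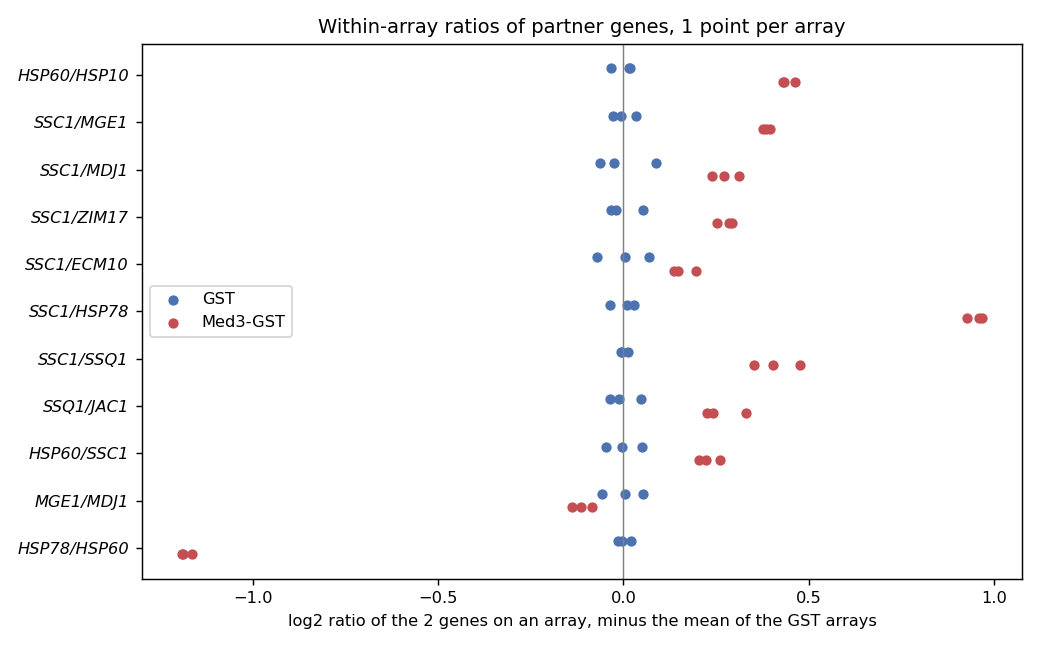
Log2 ratio of the 2 named genes on each array, minus the mean of that ratio over the GST arrays, for the 11 pairs compared (blue, GST; red, Med3-GST; 1 point per array). No pair overlaps between the groups, and the shifts run from -1.18 for HSP78/HSP60 to 0.95 for SSC1/HSP78.

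HSP78 encodes the disaggregase of the matrix, which works together with Ssc1 and is known for protecting mitochondria during heat stress in yeast. Its log2 signals were 11.88, 11.81 and 11.82 with GST and 10.95, 10.85 and 10.96 with Med3-GST. The lowest GST array lay 0.84 above the highest Med3-GST array, many times the SD of 0.04 and 0.06 within the groups. The difference was -0.91 as deposited, with a 95% interval from -1.01 to -0.81, so that the mean signal with Med3-GST was 53.1% of that with GST. After centring the difference was -0.82 (adjusted p = 2.54e-12 from limma). Only 79 of the 5498 probe sets had a lower difference than HSP78.

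In units of the array signal, HSP78 went from 3765, 3583 and 3620 to 1982, 1848 and 1998, whereas SSC1 went from 3671, 3650 and 3642 to 3881, 3517 and 3887. The Hsp70 and the disaggregase that act on the same aggregates thus parted: the log2 ratio of SSC1 to HSP78 shifted by 0.95 with a standard error of 0.02. The ratio of HSP78 to HSP60 shifted most of the 11 ratios, by -1.18 with a standard error of 0.01, which is 2.27-fold. Its values were -0.61, -0.58 and -0.60 with GST and -1.79, -1.78 and -1.76 with Med3-GST.

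**Figure D3:**
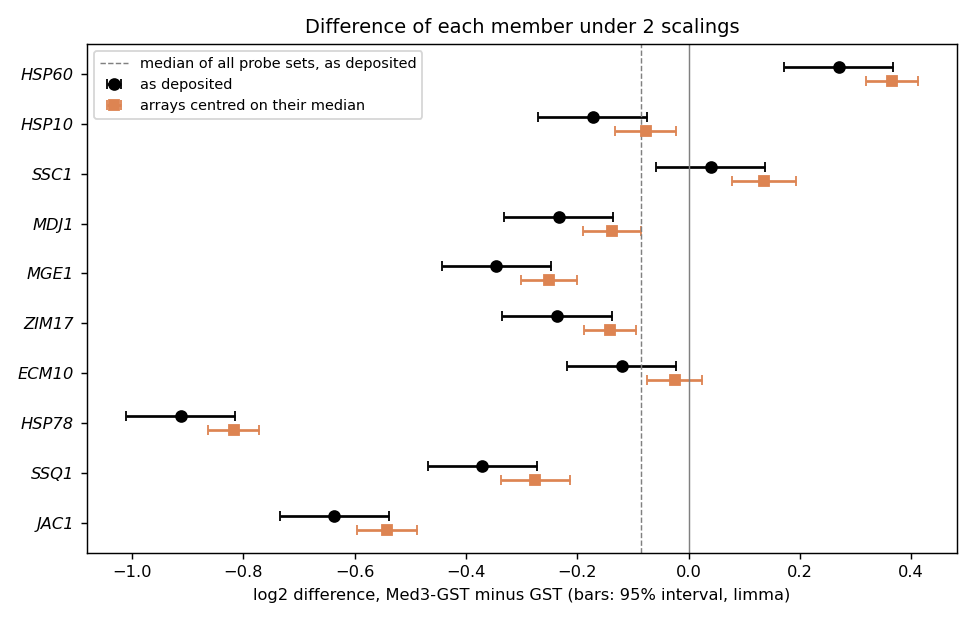
Log2 difference of each member, Med3-GST minus GST, as deposited (black circles) and after centring (orange squares), with 95% intervals from limma; the dashed line is the median of all probe sets as deposited (-0.08). Centring moves every gene up by the same amount, which lifts the interval of SSC1 off 0 and brings that of ECM10 onto it, while HSP78, JAC1, MGE1 and SSQ1 stay far below 0 and HSP60 above it.

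SSQ1 and JAC1, of the Hsp70 system of iron-sulfur cluster assembly, both fell, by different amounts. SSQ1 encodes the specialised Hsp70 that acts on the scaffold protein Isu1, on which new clusters are built. Its log2 signals were 9.73, 9.72 and 9.70 with GST and 9.33, 9.31 and 9.40 with Med3-GST. As deposited, the GST arrays lay within 0.03 of each other and 0.30 or more above all Med3-GST arrays. After centring the GST signals were less close, at 9.64, 9.72 and 9.66, and still lay above all Med3-GST arrays. SSQ1 fell by 0.37 as deposited and by 0.28 after centring (adjusted p = 4.56e-13 and 1.16e-06 from limma).

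JAC1, the J-domain protein that brings Isu1 to Ssq1, fell further. Log2 signals of JAC1 were 9.25, 9.16 and 9.20 with GST and 8.57, 8.46 and 8.66 with Med3-GST, with a gap of 0.50 between the groups. The difference was -0.64 as deposited, a 1.56-fold decrease (95% interval from -0.74 to -0.54), and 228 of the 5498 probe sets had a lower one. JAC1 lay 1.40 above the background level on average, and subtraction of the background with centring gave -0.64, against -0.54 with centring alone (adjusted p = 4.45e-10 from limma for the latter). Its difference was larger than that of SSQ1: the log2 ratio of SSQ1 to JAC1 went from 0.48, 0.56 and 0.51 to 0.76, 0.85 and 0.74, a shift of 0.27 with a standard error of 0.04. The ratio of SSC1 to SSQ1, the Hsp70 of import over that of cluster assembly, shifted by 0.41 (standard error 0.04).

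All 11 ratios separated the 3 GST arrays from the 3 Med3-GST arrays, and each gave the smallest p the exact permutation test allows, 0.1 (0.1 adjusted over the 11 ratios). The pairs share genes and are not independent of each other, and separation alone is common on these arrays, as the 85.4% of centred probe sets shows. Each shift equals the gap between the log2 differences of its genes, so the ratios are not findings separate from those differences. The shifts set against their standard errors were not tested, and the share of other gene pairs that separate the arrays was not determined.

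**Figure D4:**
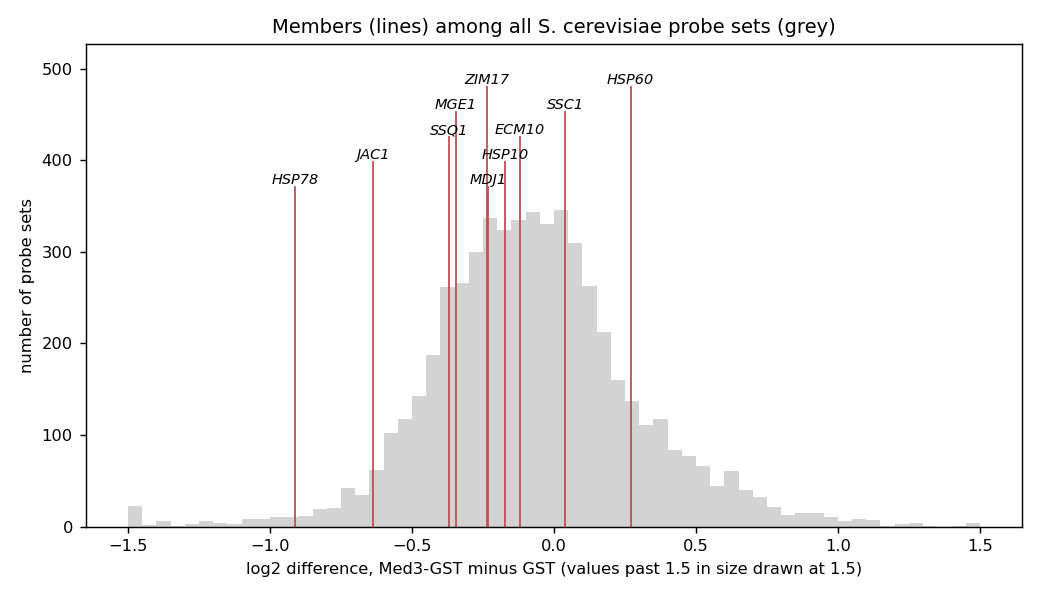
Number of probe sets of *S. cerevisiae* at each log2 difference, Med3-GST minus GST as deposited (grey, 5498 probe sets in bins of 0.05, values beyond 1.5 in size drawn at 1.5), with a red line for each of the 10 members. HSP78 and JAC1 lie in the lower tail (1.44% and 4.15% of probe sets are lower), while most members lie within the body of the distribution.

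Genes that work beside the matrix chaperones were counted in the same fit, from lists drawn up by function. Their counts stand beside the shares of all probe sets, of which 27.1% rose and 47.8% fell as deposited and 43.6% rose and 41.7% fell after centring. The share of genes past the test ran from 50% to 90% over the 5 lists as deposited, against 74.9% of all probe sets, and from 66.7% to 86.7% after centring, against 85.3%, and nothing is read from these shares about a list. Of 20 genes of the import motor and translocases, through which Ssc1 receives its substrates, 8 rose and 3 fell as deposited and 13 rose and 3 fell after centring, with medians of 0.03 and 0.12. TOM40, the pore of the outer membrane, rose by 0.61 (11.06 ± 0.10 to 11.67 ± 0.07, SD, n = 3 each), and TIM23, the channel of the inner membrane, rose by 0.50. TOM70, a receptor for incoming proteins, fell by 0.39.

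Of 18 genes for presequence processing and protein quality control in mitochondria, 8 fell and 1 rose as deposited, but 7 fell and 5 rose after centring (medians of -0.10 and -0.01). PHB1, one of the prohibitins, which form rings in the inner membrane, fell by 0.43. IMP2, a subunit of the inner membrane peptidase, and OCT1, the octapeptidyl aminopeptidase of the matrix, each fell by 0.34.

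Of 16 genes for the small TIM chaperones and for insertion and assembly at the inner membrane, 10 fell and 3 rose as deposited and 9 fell and 4 rose after centring (medians of -0.19 and -0.10). The small TIM proteins escort membrane proteins through the space between the membranes. TIM13, one of them, rose by 0.74 (10.64 ± 0.07 to 11.38 ± 0.06, SD, n = 3 each) and TIM12 by 0.44. The other small TIM genes of the list, TIM8, TIM9 and TIM10, fell under both scalings, with -0.27, -0.24 and -0.20 as deposited. MIA40, the oxidoreductase that folds them there, fell by 0.65.

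Of 15 measured genes of iron-sulfur cluster assembly other than SSQ1 and JAC1, 6 fell and 5 rose as deposited and 6 fell and 7 rose after centring, with medians of -0.04 and 0.05. ISA2, which is needed for clusters of the larger kind, fell by 0.73. ISU2, the second scaffold gene, rose by 0.54 and YAH1, the ferredoxin of the pathway, by 0.49. ISU1, the gene of the scaffold Isu1, did not pass the test, with -0.06 as deposited and 0.03 after centring. The fall of both SSQ1 and JAC1 thus stood in a pathway whose other genes went both ways.

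Of 20 chaperones and cochaperones of the cytosol and nucleus that are linked to Hsf1, 11 fell and 7 rose as deposited and 8 fell and 8 rose after centring (medians of -0.11 and -0.02). The largest differences were those of the small heat shock proteins HSP26 and HSP42 and of the stress-induced Hsp70 SSA4, with -1.99, -1.40 and -1.10. HSP78 lay nearest to these among the matrix chaperones only because it was the lowest of them, with -0.91. Other genes of the list rose, by up to 0.64. No list was tested as a set.

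**Figure D5:**
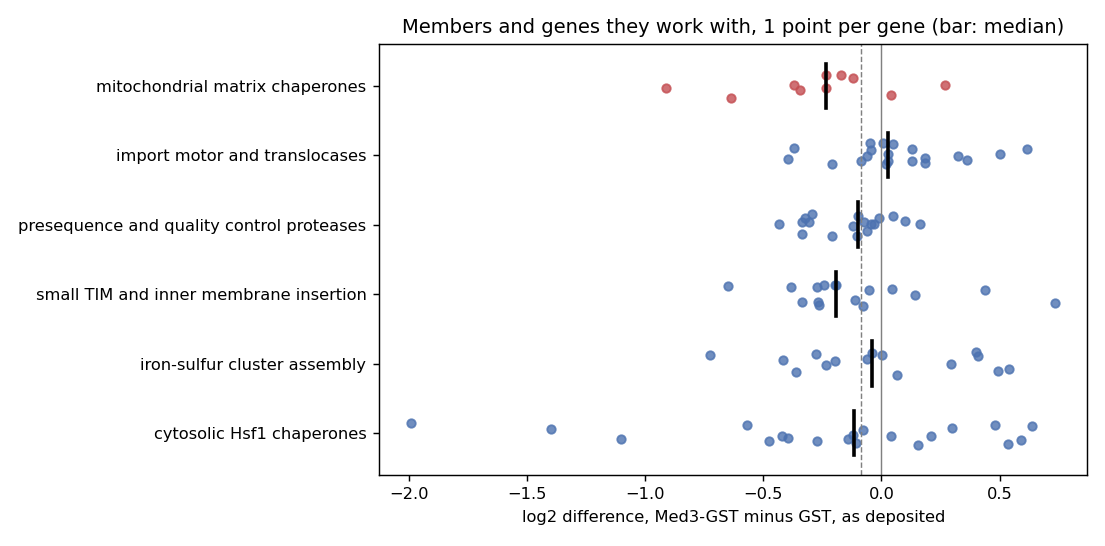
Log2 difference, Med3-GST minus GST as deposited, of each of the 10 matrix chaperones (red) and of the genes in 5 lists of related function (blue, 1 point per gene); black bars are the medians of the groups and the dashed line the median of all probe sets. The median is -0.23 for the matrix chaperones and lies between -0.19 and 0.03 for the 5 lists, and each list has genes on both sides of 0.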

How the data were processed

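RNA of 3 GST and 3 Med3-GST cultures was hybridized to Affymetrix Yeast Genome arrays by the study. The authors deposited log10 signals per probe set. The paper names normalization within each experiment for its false discovery rates, and whether the deposited signals carry it was not tested. For background correction, probe summary and the kind of normalization, the method is not stated in these sources. The base was read from the values: 10 to the deposited value had at most 2 decimals (within 0.005 of a whole number of hundredths) in 100% of cells. Values were converted to log2 without further scaling. Of 10928 probe sets, 5498 were annotated to 1 *S. cerevisiae* gene and tested, with names brought to assembly R64 (12 updated). The 1746 probe sets annotated to a gene outside *S. cerevisiae* were taken as *S. pombe* and served as background. Their median signal on each array was the value subtracted in the background subtraction.

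Groups were compared with lmFit and eBayes in limma 3.58.1 (R 4.3.3), adjusted by Benjamini-Hochberg. As deposited, limma estimated an infinite prior weight, so that all probe sets shared 1 spread and small adjusted p-values rest on it; after centring the prior was 7.97 degrees of freedom. The procedure was tested on simulated data. Ratios of members within arrays were compared by exact permutation. Alternatives were other scalings, background subtraction (floor of 16 units), another model of the spread, a replicate block, a filter on dim probe sets and leaving out each array, the last also after centring, which was added after seeing the data.

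Members and lists were chosen with earlier results of these data known. In each list the 3 genes past the test with the largest differences were named. TIM8, TIM9, TIM10 and ISU1 were named in addition, after their values were seen. Sequences of promoters, proteins and probes were not used here, so that a planned motif count was not made, and no coordinates are given. The number of arrays limits the precision.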

Additional observations from a re-analysis of the deposited data

How the results depend on the processing

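Of 190 comparisons of a member with an alternative (19 for each of the 10 genes), 165 kept the direction and the side of the threshold, 15 were no longer past it, 10 were newly past it and none changed direction. The changes were those of SSC1, ECM10 and HSP10 given above, and the other 7 genes kept their calls throughout. SSC1 passed in all alternatives that centred or quantile normalized the arrays and in no other. Members past the test numbered 1 higher and 8 lower as deposited, 2 higher after centring, after background subtraction with centring, after quantile normalization and with the replicate block after centring (2 each), and without single arrays 1 to 2 higher and 6 to 8 lower. Among all probe sets, 1488 were higher as deposited, 2395 after centring, 2406 after background subtraction with centring and 2412 with the replicate block after centring; without single arrays this count ran from 1305 to 1724 as deposited, and the count of lower probe sets from 2434 to 2738. Higher probe sets were 36.1% of the calls as deposited and 51.1% after centring.

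Replicates of the groups share letters in the titles. Deviations from the group means correlated by 0.04, 0.03 and 0.06 between arrays of the same letter. All 6 arrays correlated best with the array of their own letter. Such correlations cannot see an offset of a whole array, and array B had the lowest median in both groups (9.99 with GST, 9.87 with Med3-GST). The main comparison left the letter out, and whether the replicates were paired was not tested. With the letter as a replicate block, 1711 probe sets were higher and 2869 lower, against 1488 and 2629 without it. The members' calls were the same. Subtracting the background moved the ratios of SSC1 to ZIM17 (0.32), SSQ1 to JAC1 (0.34) and HSP78 to HSP60 (-1.21) by more than the spread between arrays, all further from 0. Every member has 1 probe set, so that averaging probe sets was not run. ECM10, JAC1 and ZIM17 are the members nearest to background, where signal limits the size of a difference.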

Other observations

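In the gene order of assembly R64 the 10 members lie on 8 chromosomes, and none overlaps another gene model. Of their 20 direct neighbours, 18 were measured, of which 9 fell, 5 rose and 4 did not pass the test as deposited. In the same fit 47.8% of all probe sets fell and 27.1% rose, and nothing is read from the count of neighbours. The largest difference of a neighbour was that of GSY2, a glycogen synthase gene next to HSP60, with -1.07, while HSP60 rose by 0.27; GSY2 was chosen after its values were seen. TAH11, next to SSC1, rose by 0.60 and was also named after its values were seen. JAC1 lies 6 genes from PGD1, the chromosomal copy of MED3, on the same chromosome, and the direct neighbours of JAC1, CKB1 and ATE1, had log2 differences of -0.23 and -0.08.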
